A study of Mus musculus with 18 samples.

Results

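The genes described here encode the microfibril and elastic fibre proteins of the extracellular matrix, chosen by symbol: Eln, Fbln5, Emilin1, Fbn1, Fbn2, Mfap2, Mfap4, Mfap5, Fbln1 and Fbln2. All 10 are among the 23420 genes of the count tables, and all 10 passed the low-count filter that left 14162 genes for testing. They were measured by bulk RNA sequencing in fibroblasts isolated from hearts of neonatal CD1 mice and undergoing direct cardiac reprogramming. A polycistronic retrovirus with the transcription factors Mef2c, Gata4 and Tbx5 (MGT) drives such cells towards a cardiomyocyte-like state. Short hairpin RNAs lowered Mtfr1l, a mitochondrial outer membrane protein, or Opa1, a GTPase of inner mitochondrial membrane fusion. The second of 2 sample sets held 4 groups of 3 libraries, all with the MGT retrovirus: the double knockdown (shMtfr1l and shOpa1 together), shMtfr1l alone, shOpa1 alone, and the non-targeting control shNT. The first set is used for 1 shMtfr1l sample and 1 shNT sample of reprogramming cells at day 7.

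In the titles, replicates 1, 2 and 3 of each group in the second set stand for days 7, 8 and 9. The labels call them biological replicates without tying them to animals or isolations, so p-values measure the spread between these libraries. No sorting step is named in the labels, so transduced and untransduced cells may lie in the same library. The titles of libraries with Opa1 knockdown all read shOpa1, but their genotype field numbers on with the replicate, to shOpa2 and shOpa3. Library totals ran from 16205862 to 25317069 gene counts in the second set; the first set had 62923192 (shMtfr1l) and 67068683 (shNT). Mtfr1l averaged 27.2 CPM (counts scaled to the TMM-adjusted library size) in the double knockdown, 16.4 in shMtfr1l, 69.6 in shOpa1 and 71.9 in shNT. Opa1 averaged 18.3, 72.1, 8.96 and 63.1 CPM over the same groups, so each single knockdown depleted its target further than the double knockdown did.

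Elastic fibres give heart valves, arteries and the myocardial interstitium their recoil. Fibroblasts and smooth muscle cells secrete tropoelastin, the product of Eln, which is deposited on a scaffold of fibrillin microfibrils and crosslinked there by lysyl oxidases. The microfibrils also hold latent TGF-beta and BMP complexes in the matrix. Fibulins and emilins link elastin to microfibrils and to cell-surface integrins, and the MFAP glycoproteins decorate the microfibril or the fibre surface.

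In the mm10 build, Eln spans 5:134702596-134747254 (minus strand), Fbln5 12:101746565-101819119 (minus), Emilin1 5:30913786-30921273 (plus) and Fbn1 2:125300594-125506438 (minus). Mfap2 spans 4:141010424-141015984, Mfap4 11:61485444-61488704, Mfap5 6:122513676-122529287, Fbln1 15:85206008-85286294 and Fbln2 6:91212764-91272540, all on the plus strand. Promoter sequences of RefSeq (GRCm38.p6) were matched by symbol for 6 members, Mfap2, Fbn1, Fbln1, Fbln2, Fbln5 and Emilin1; the others are Mfap4, Mfap5, Fbn2 and Eln. The 250 bases before the start are shown for the 3 matched members that were lower after Opa1 knockdown (Mfap2, Fbln1 and Emilin1) and for Fbln2, which was lower after Mtfr1l knockdown. The start is the most upstream RefSeq start of each gene, which for Fbln1 lies upstream of the span given above. Capitals mark matches, on either strand, to the core motif of SMAD proteins (CAGACA), the motif of TEAD proteins (GGAATG) and that of Sp1 (GGGCGG); a match on the other strand is shown as its reverse complement. All 4 lie on the plus strand and run 5′ to 3′, at 4:141010174-141010423 (Mfap2), 15:85205699-85205948 (Fbln1), 6:91212514-91212763 (Fbln2) and 5:30913536-30913785 (Emilin1).
Mfap2: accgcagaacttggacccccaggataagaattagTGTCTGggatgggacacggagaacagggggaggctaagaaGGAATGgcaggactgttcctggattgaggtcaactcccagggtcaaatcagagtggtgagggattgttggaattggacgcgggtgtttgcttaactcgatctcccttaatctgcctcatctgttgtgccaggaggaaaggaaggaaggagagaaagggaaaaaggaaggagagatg
Fbln1: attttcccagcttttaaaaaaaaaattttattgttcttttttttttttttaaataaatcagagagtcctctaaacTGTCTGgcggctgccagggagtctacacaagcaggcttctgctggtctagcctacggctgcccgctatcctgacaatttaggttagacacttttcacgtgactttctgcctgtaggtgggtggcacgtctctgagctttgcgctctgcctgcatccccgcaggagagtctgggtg
Fbln2: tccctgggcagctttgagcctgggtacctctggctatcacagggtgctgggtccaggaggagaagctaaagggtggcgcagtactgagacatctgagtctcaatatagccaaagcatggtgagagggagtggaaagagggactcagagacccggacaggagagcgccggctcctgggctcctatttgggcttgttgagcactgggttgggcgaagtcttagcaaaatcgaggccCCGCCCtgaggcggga
Emilin1: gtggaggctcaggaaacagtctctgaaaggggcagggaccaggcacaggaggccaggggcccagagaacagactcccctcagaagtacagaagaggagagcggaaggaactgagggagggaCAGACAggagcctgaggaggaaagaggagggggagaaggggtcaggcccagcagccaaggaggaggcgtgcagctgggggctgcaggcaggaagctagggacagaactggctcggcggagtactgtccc

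Searched on both strands over 27025 promoters of that length, CAGACA stood in 17.1% and in 3 of the 6 matched members, Mfap2, Fbln1 and Emilin1. GGAATG stood in 12.6% of all promoters and in 1 member, Mfap2, where it began 176 bases before the start. GGGCGG stood in 33.0% and in 3 members, Fbn1, Fbln2 and Fbln5. No match in the 6 windows was found for the AP-1 motif TGANTCA, which stood in 6.85% of all promoters, or the GATA motif AGATAA, in 10.2%. The T-box motif AGGTGT (3255 promoters), the TATA box in its form TATAAA (3507 promoters), and the CArG (1.41%) and MEF2 (0.522%) motifs had no match there either. No match overlapped another. These matches describe letters in these windows and were not tested for binding.

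Per kilobase of annotated exons, Eln was the most abundant member in every group, at 974 CPM per kb in the double knockdown, 834 in shMtfr1l, 1436 in shOpa1 and 816 in shNT. Fbln2 came next in every group (615, 465, 655 and 642 CPM per kb in the same order of groups). In shNT the order continued with Mfap4 (269), Emilin1 (232), Fbn1 (224), Fbln1 (114), Fbln5 (56.5), Mfap2 (18.1), Mfap5 (15.4) and Fbn2 (4.72 CPM per kb). The libraries of neighbouring genes in that order overlapped for Emilin1 with Fbn1 and for Mfap2 with Mfap5, and not for the other pairs. Mfap4 stood at rank 5 in the double knockdown (125 CPM per kb), in shMtfr1l (202) and in shOpa1 (119), against rank 3 in shNT. Mfap5 stood above Mfap2 in the double knockdown (21.1 against 8.84 CPM per kb) and in shOpa1 (31.2 against 9.15), and below it in shMtfr1l (7.50 against 19.8). Summed over the 10 members, Eln made up 36.2% to 38.7% of their CPM in the double knockdown, 32.8% to 35.1% in shMtfr1l, 44.1% to 47.3% in shOpa1 and 29.5% to 30.9% in shNT.

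**Figure D1:**
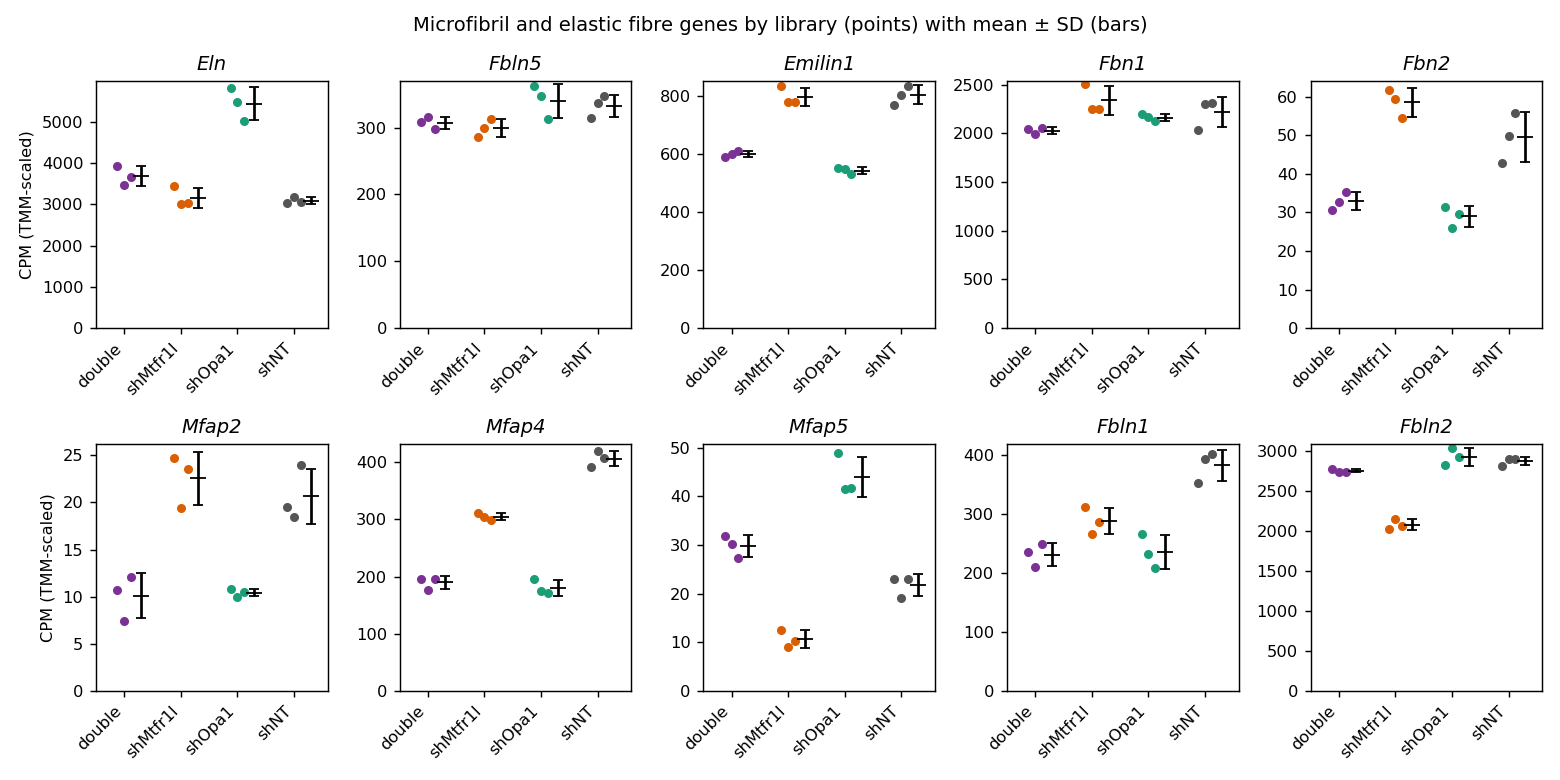
Level of each of the 10 genes in CPM (vertical axes, from 0) in the 12 libraries of the second set; points are libraries in the order of replicates 1 to 3, and bars give the mean and SD of 3 libraries. Eln and Mfap5 are highest in shOpa1, Mfap5 is lowest in shMtfr1l, and Mfap2, Mfap4, Fbn2 and Emilin1 are lower in the double knockdown and in shOpa1 than in shNT.

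With Opa1 lowered alone, 7 of the 10 genes changed: Mfap5 (2.03-fold) and Eln (1.76-fold) rose, and Mfap4 (2.26-fold), Mfap2 (1.98-fold), Fbn2 (1.71-fold), Fbln1 (1.62-fold) and Emilin1 (1.48-fold) fell against shNT. With Mtfr1l lowered alone, none rose and 4 fell: Mfap5 (2.05-fold), Fbln2 (1.38-fold), Mfap4 (1.33-fold) and Fbln1 (1.33-fold). In the double knockdown 2 rose against shNT, Mfap5 (1.37-fold) and Eln (1.19-fold), and 6 fell, Mfap4 (2.14-fold), Mfap2 (2.05-fold), Fbln1 (1.66-fold), Fbn2 (1.51-fold), Emilin1 (1.34-fold) and Fbn1 (1.09-fold). A call is an adjusted p under 0.05 in edgeR's quasi-likelihood test with Benjamini-Hochberg adjustment over all 14162 genes. By that rule 29.4% of all genes were called in shOpa1 against shNT (14.3% higher, 15.1% lower), 10.8% in shMtfr1l against shNT (5.56% higher, 5.19% lower) and 23.1% in the double knockdown against shNT (11.2% higher, 11.9% lower). The 3 comparisons share the shNT libraries. The median log2 fold change of the 10 genes was -0.30 in shOpa1, -0.083 in shMtfr1l and -0.27 in the double knockdown, against medians between 0.003 and 0.010 over all genes tested. In bulk RNA, fewer cells of a type and less RNA per cell cannot be told apart.

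Against the single knockdowns, the double knockdown had 3 members higher than shMtfr1l (Mfap5, Fbln2 and Eln; 9.72% of all genes) and 6 lower (Mfap2, Fbn2, Mfap4, Emilin1, Fbln1 and Fbn1; 11.7% of all genes). The falls against shMtfr1l were 2.24-fold for Mfap2 (adjusted p = 6.51e-07), 1.78-fold for Fbn2 (4.2e-08), 1.61-fold for Mfap4 (3.07e-12) and 1.33-fold for Emilin1 (6.61e-09). Against shOpa1, no member was higher (2.31% of all genes) and 2 were lower, Mfap5 and Eln (2.46% of all genes). There the log2 differences were 0.07 ± 0.06 for Mfap4 (SE; adjusted p = 0.576), -0.090 ± 0.039 for Fbln2 (0.218), -0.091 ± 0.046 for Fbn1 (0.323) and 0.18 ± 0.10 for Fbn2 (0.387). Those of Mfap2 (-0.052 ± 0.164; adjusted p = 0.928) and Fbln1 (-0.028 ± 0.095; adjusted p = 0.935) lay within 1 SE of 0. Over either direction 21.5% of all genes were called against shMtfr1l and 4.77% against shOpa1.

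Markers of some cell types moved between the groups that differ in the members. The summed CPM of 10 cardiomyocyte markers ran from 2071 to 2135 in the double knockdown, 3500 to 3778 in shMtfr1l, 1561 to 1755 in shOpa1 and 2720 to 2801 in shNT. The groups did not overlap in this sum, with shMtfr1l highest and shOpa1 lowest. Tnnt2 made up most of it in every group, at 1580, 2510, 1340 and 2030 CPM in the same order of groups. Of the 10 cardiomyocyte markers, 1 rose and 5 fell in the double knockdown against shNT. In shMtfr1l 7 rose and 1 fell, and in shOpa1 none rose and 9 fell, also against shNT. Over all genes, 23.1%, 10.8% and 29.4% were called in these comparisons, in the same order. The sum of 8 smooth muscle markers ran from 3545 to 3603 in the double knockdown, 3918 to 4182 in shMtfr1l, 3670 to 3844 in shOpa1 and 4416 to 4762 in shNT. That of 10 fibroblast markers outside the members ran from 35110 to 37320 in the double knockdown, 32000 to 33950 in shMtfr1l, 37080 to 38070 in shOpa1 and 32350 to 35140 in shNT. Col1a1, Col1a2 and Col3a1 made up most of the fibroblast sum, at 12500, 10400 and 7260 CPM in shNT. Of the 10 fibroblast markers, 1 rose and 4 fell in the double knockdown against shNT. In shMtfr1l 1 rose and 5 fell, and in shOpa1 3 rose and 4 fell. The smooth muscle sum was highest in shNT, while the fibroblast sum overlapped between shNT and both shMtfr1l and the double knockdown. Acta2 and Tagln, at 2880 and 1250 CPM in shNT, made up most of the smooth muscle sum. Of the 8 smooth muscle markers, none rose and 4 fell against shNT in the double knockdown and likewise in shOpa1. In shMtfr1l 1 rose and 3 fell. Sums of 8 epicardial and mesothelial markers lay between 397 and 465 CPM in the knockdown groups and between 547 and 575 in shNT. None of these 8 rose against shNT, while 7 fell in the double knockdown, 5 in shMtfr1l and 5 in shOpa1. Tbx18, the largest part of this sum, averaged 216 CPM in shNT and 238 in shMtfr1l. The 5 macrophage and leukocyte markers found in the files summed to 515 to 667 CPM in the double knockdown, 126 to 458 in shMtfr1l, 216 to 519 in shOpa1 and 252 to 368 in shNT, with none called. The 6 endothelial markers summed to 43.7 to 59.8 CPM and the 5 Schwann and neural crest markers to 4.01 to 7.23 CPM over the 12 libraries. No marker found in the files was at 0 in every library, and the part of these shifts in the members' differences was not tested.

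**Figure D2:**
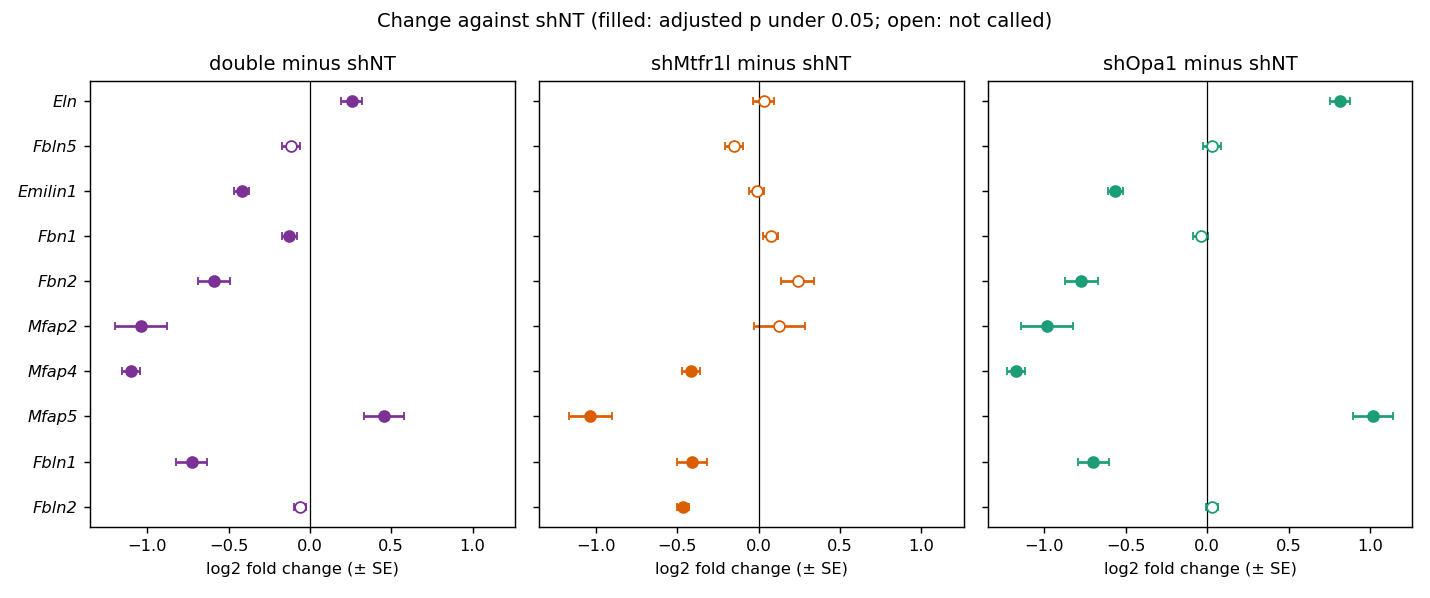
Log2 fold change of each gene against shNT (horizontal axes) for the double knockdown, shMtfr1l and shOpa1, with bars for ± 1 SE; filled points passed an adjusted p under 0.05 and open points did not. Mfap5 lies at -1.03 in shMtfr1l and at 1.02 in shOpa1, while Fbln5 is open in all 3 panels.

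Eln, the gene of tropoelastin, stood at 3924, 3460 and 3667 CPM in the double knockdown, 3442, 2998 and 3018 in shMtfr1l, 5812, 5470 and 5009 in shOpa1, and 3026, 3177 and 3052 in shNT. Every shOpa1 library lay above every other library, every double knockdown library lay above every shMtfr1l and shNT library, and the shMtfr1l and shNT libraries overlapped. Eln rose in shOpa1 against shNT by 0.82 ± 0.06 on the log2 scale (SE; adjusted p = 7.09e-08) and in the double knockdown by 0.26 ± 0.06 (adjusted p = 0.00711). In shMtfr1l the difference from shNT was 0.031 ± 0.062 (adjusted p = 0.841). The double knockdown was 1.47-fold lower than shOpa1 (log2 fold change -0.56 ± 0.06; adjusted p = 6.52e-05) and 1.17-fold higher than shMtfr1l (0.22 ± 0.06; adjusted p = 0.0171). The call against shNT in the double knockdown was lost without shNT replicate 1 (adjusted p = 0.079). That against shMtfr1l was lost without double knockdown replicate 1 (0.0507), without shMtfr1l replicate 2 (0.0514) or 3 (0.0815), and without replicate 3 of every group (0.0513).

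Fbln5 encodes fibulin-5, which carries elastin onto microfibrils and binds integrins. Its libraries ranged from 298 to 315 CPM in the double knockdown, 286 to 313 in shMtfr1l, 312 to 362 in shOpa1 and 314 to 346.5 in shNT. Fbln5 was not called in any comparison, with log2 fold changes against shNT of -0.12 ± 0.06 in the double knockdown (adjusted p = 0.13), -0.15 ± 0.06 in shMtfr1l (0.0687) and 0.032 ± 0.055 in shOpa1 (0.721). The double knockdown differed by 0.038 ± 0.055 from shMtfr1l (adjusted p = 0.691) and by -0.15 ± 0.06 from shOpa1 (0.128). Fbln5 did pass in some fits that left out 1 library: in shMtfr1l against shNT without shMtfr1l replicate 3 (adjusted p = 0.0411) or shNT replicate 1 (0.0269), in the double knockdown against shNT without shNT replicate 1 (0.049), and against shOpa1 without shOpa1 replicate 3 (0.0302). Emilin1 encodes an elastin-microfibril interface protein that holds back TGF-beta processing. Emilin1 stood at 591, 599.5 and 610.2 CPM in the double knockdown, 833, 778 and 779 in shMtfr1l, 550.0, 549.5 and 529.5 in shOpa1, and 770.3, 803 and 836 in shNT. The shMtfr1l and shNT libraries overlapped, and all libraries with Opa1 knockdown lay below them. Emilin1 fell in shOpa1 (log2 fold change -0.56 ± 0.05; adjusted p = 1.16e-12) and in the double knockdown (-0.42 ± 0.05; adjusted p = 3.98e-09), and its value in shMtfr1l was -0.012 ± 0.045 (adjusted p = 0.926). Between the double knockdown and shOpa1 the log2 difference was 0.14 ± 0.05 (adjusted p = 0.0575).

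Fbn1, the fibrillin of the microfibril core that is mutated in Marfan syndrome, varied least among the fibrillins and MFAP genes. Its libraries ranged from 1992 to 2049 CPM in the double knockdown, 2247 to 2510 in shMtfr1l, 2122 to 2193 in shOpa1 and 2036 to 2310 in shNT. The log2 fold changes against shNT were -0.13 ± 0.05 in the double knockdown (adjusted p = 0.0376), 0.076 ± 0.046 in shMtfr1l (0.357) and -0.038 ± 0.046 in shOpa1 (0.593). The call in the double knockdown was lost with the replicate number as a block (adjusted p = 0.0645), without a robust estimate of the spread (0.0527), and in 7 of the fits that left out libraries, the highest of them without replicate 2 of every group (0.383). Against shMtfr1l, Fbn1 was 1.15-fold lower in the double knockdown (-0.20 ± 0.05; adjusted p = 0.000902).

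Fbn2 (18:58008623-58209926, minus strand) is the fibrillin used mainly in embryonic tissues. It had 30.7, 32.7 and 35.4 CPM in the double knockdown, 61.7, 59.3 and 54.4 in shMtfr1l, 31.3, 26.0 and 29.6 in shOpa1, and 42.8, 49.9 and 55.7 in shNT. All libraries with Opa1 knockdown lay below all others, and shMtfr1l overlapped shNT. Fbn2 fell in the double knockdown (-0.59 ± 0.10; adjusted p = 2.17e-05) and in shOpa1 (-0.77 ± 0.10; adjusted p = 1.11e-07). In shMtfr1l its log2 fold change was 0.24 ± 0.10 (adjusted p = 0.129). Without replicate 3 of every group that difference passed (0.38; adjusted p = 0.0415).

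Mfap2 encodes MAGP-1, which binds fibrillin and active TGF-beta. It stood at 10.7, 7.43 and 12.1 CPM in the double knockdown, 24.7, 19.4 and 23.6 in shMtfr1l, 10.8, 9.99 and 10.5 in shOpa1, and 19.5, 18.4 and 23.9 in shNT. The libraries fell into a lower range with Opa1 knockdown and a higher range without it, with no overlap between the ranges. Mfap2 fell in the double knockdown (-1.04 ± 0.16; adjusted p = 5.26e-06) and in shOpa1 (-0.98 ± 0.16; adjusted p = 7.41e-06), and its value in shMtfr1l was 0.13 ± 0.16 (adjusted p = 0.713). Each Mfap2 value rests on 191 to 506 counts per library, where the mates of a pair were counted separately.

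Mfap5 encodes MAGP-2, the paralogue of MAGP-1, which also binds fibrillin. It stood at 31.7, 30.2 and 27.4 CPM in the double knockdown, 12.6, 8.94 and 10.2 in shMtfr1l, 48.8, 41.6 and 41.8 in shOpa1, and 23.0, 19.1 and 23.1 in shNT. None of the 4 groups overlapped another. Mfap5 fell in shMtfr1l (-1.03 ± 0.13; adjusted p = 2.85e-07), rose in shOpa1 (1.02 ± 0.12; adjusted p = 1.68e-08) and lay between these groups in the double knockdown. The double knockdown was 2.81-fold higher than shMtfr1l (1.49 ± 0.13; adjusted p = 1.87e-11), 1.48-fold lower than shOpa1 (-0.56 ± 0.12; adjusted p = 0.0025) and 1.37-fold higher than shNT (0.46 ± 0.12; adjusted p = 0.00495). The last of these was lost without shNT replicate 2 (adjusted p = 0.0554) and without replicate 2 of every group (0.112).

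Mfap4 encodes an integrin-binding glycoprotein of the elastic fibre surface that is made by smooth muscle cells and fibroblasts. It stood at 196, 177 and 196.5 CPM in the double knockdown, 311, 304 and 299.9 in shMtfr1l, 196, 174 and 171 in shOpa1, and 393, 419 and 408 in shNT. The shNT libraries were highest, shMtfr1l lay below them without overlap, and the double knockdown overlapped shOpa1 at the bottom. Mfap4 fell in the double knockdown (-1.10 ± 0.06; adjusted p = 1.45e-17), in shMtfr1l (-0.41 ± 0.06; adjusted p = 7.59e-07) and in shOpa1 (-1.17 ± 0.06; adjusted p = 5.51e-19).

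Fbln1 encodes fibulin-1 of basement membranes and of the elastic fibre core. It stood at 236, 209 and 248 CPM in the double knockdown, 311, 266 and 286 in shMtfr1l, 267, 232 and 208 in shOpa1, and 352, 393 and 402 in shNT. Every shNT library lay above every other library, and shOpa1 overlapped shMtfr1l and the double knockdown. Fbln1 fell in the double knockdown (-0.73 ± 0.10; adjusted p = 0.000111), in shOpa1 (-0.70 ± 0.10; adjusted p = 9.64e-05) and in shMtfr1l (-0.41 ± 0.09; adjusted p = 0.0144). The call in shMtfr1l was lost without shMtfr1l replicate 3 (adjusted p = 0.0717), without shNT replicate 2 (0.0637) or 3 (0.0539), and without replicate 2 of every group (0.0668). The lower level in the double knockdown than in shMtfr1l (-0.32 ± 0.10; adjusted p = 0.031) was lost in 5 of the fits that left out libraries: those without double knockdown replicate 1 (0.0776) or 2 (0.0726), without shMtfr1l replicate 1 (0.108) or 3 (0.0988), and without replicate 2 of every group (0.0514).

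Fbln2 encodes fibulin-2, a fibulin of cardiac valves and vessel walls that binds fibrillin and tropoelastin. It stood at 2776, 2743 and 2743 CPM in the double knockdown, 2024, 2158 and 2062 in shMtfr1l, 2823, 3043 and 2929 in shOpa1, and 2817, 2901 and 2903 in shNT. The shMtfr1l libraries lay below all others. Fbln2 fell in shMtfr1l (-0.46 ± 0.04; adjusted p = 2.65e-11), and its values against shNT were -0.061 ± 0.039 in the double knockdown (adjusted p = 0.279) and 0.029 ± 0.039 in shOpa1 (adjusted p = 0.638). The double knockdown was 1.32-fold higher than shMtfr1l (0.40 ± 0.04; adjusted p = 2.13e-10).

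The difference between Mtfr1l knockdown on an Opa1 knockdown background (double knockdown minus shOpa1) and on the control background (shMtfr1l minus shNT) was tested as an interaction. It passed for 3 of the 10 members and for 3.56% of all genes, with 2 members positive (1.57% of all genes) and 1 negative (1.99%). Mfap4 differed by 0.07 ± 0.06 with Opa1 knockdown and by -0.41 ± 0.06 without it, an interaction of 0.49 ± 0.08 (adjusted p = 0.000101). Fbln2 differed by -0.090 ± 0.039 with Opa1 knockdown and by -0.46 ± 0.04 without it (interaction 0.38 ± 0.06; adjusted p = 2.83e-05). Eln differed by -0.56 ± 0.06 with Opa1 knockdown and by 0.031 ± 0.062 without it (interaction -0.59 ± 0.09; adjusted p = 0.0012). For Mfap5, lower in both settings, the interaction was 0.47 ± 0.18 and did not pass (adjusted p = 0.153). For Fbln1 it was 0.38 ± 0.13 (adjusted p = 0.172), and it passed with no low-count filter (0.00025), without shOpa1 replicate 1 (0.00825) and without replicate 1 of every group (0.00524). The other members did not pass: Emilin1 (0.16 ± 0.06; adjusted p = 0.203), Fbn1 (-0.17 ± 0.06; 0.169), Mfap2 (-0.18 ± 0.23; 0.789), Fbn2 (-0.056 ± 0.142; 0.908) and Fbln5 (0.006 ± 0.078; 0.982). The weaker depletion of both targets in the double knockdown moves with these differences, and its part in them was not tested.

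**Figure D3:**
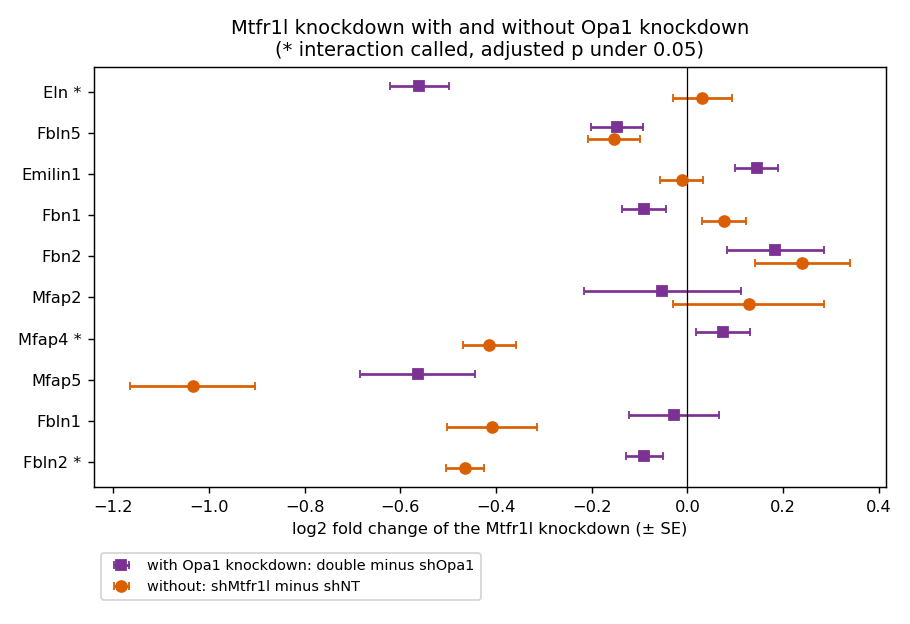
Log2 fold change of each gene after Mtfr1l knockdown (horizontal axis, ± 1 SE), with Opa1 knockdown (double knockdown minus shOpa1, squares) and without it (shMtfr1l minus shNT, circles). An asterisk marks the 3 genes, Eln, Mfap4 and Fbln2, whose interaction passed an adjusted p under 0.05.

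Ratios within a library set pairs of members against each other per kilobase; they were not tested. Mfap5 to Mfap2, the paralogous MAGPs, averaged 2.50 ± 0.74 in the double knockdown, 0.378 ± 0.031 in shMtfr1l, 3.41 ± 0.22 in shOpa1 and 0.856 ± 0.088 in shNT (SD, n = 3 each). Elastin to fibrillin-1 (Eln to Fbn1) averaged 4.75 ± 0.25 in the double knockdown, 3.53 ± 0.05 in shMtfr1l, 6.58 ± 0.38 in shOpa1 and 3.65 ± 0.22 in shNT. In both ratios the libraries with Opa1 knockdown lay above all libraries without it. Fbn2 to Fbn1 averaged 0.0153 ± 0.0011 in the double knockdown, 0.0237 ± 0.0011 in shMtfr1l, 0.0127 ± 0.0012 in shOpa1 and 0.0210 ± 0.0016 in shNT. Fbln2 to Fbln1 averaged 8.99 ± 0.78 in the double knockdown, 5.46 ± 0.61 in shMtfr1l, 9.45 ± 1.35 in shOpa1 and 5.66 ± 0.31 in shNT. The libraries with Opa1 knockdown did not overlap those without it in either ratio, below them for the fibrillins and above them for the fibulins.

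**Figure D4:**
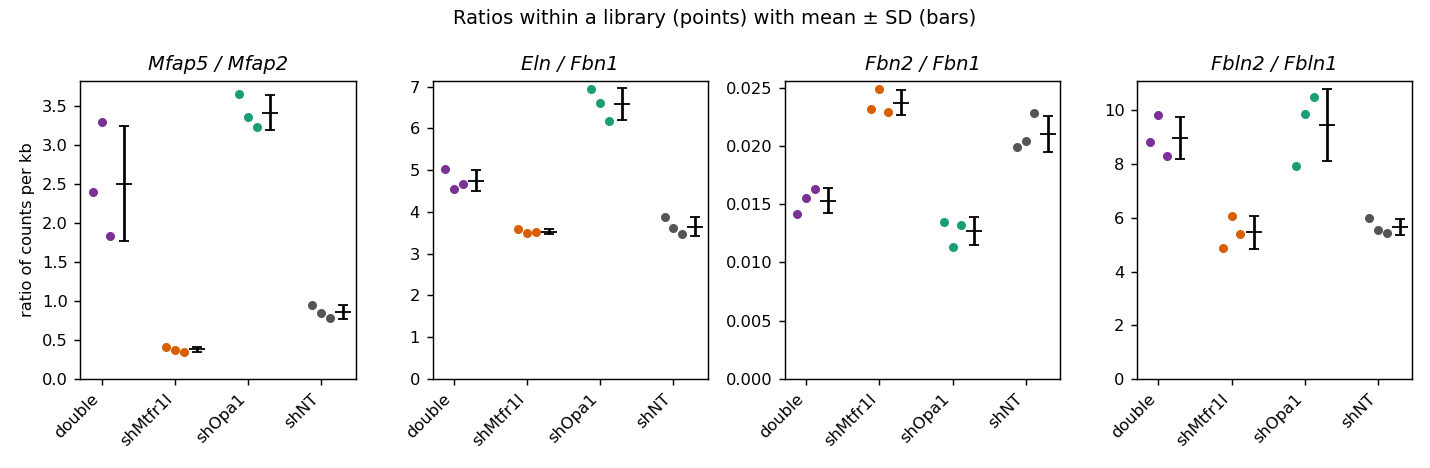
Ratio of counts per kilobase between 2 members in each library (vertical axes, from 0), with the mean and SD of 3 libraries per group. The ratio of Mfap5 to Mfap2 lies between 0.350 and 0.412 in shMtfr1l and between 3.22 and 3.65 in shOpa1.

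Members differed in how alike their patterns were, measured as the root mean square difference of log2 CPM over the 12 libraries after each gene was centred on its mean. Mfap2 and Mfap5 were the farthest apart of all pairs of members (1.26), and Fbn1 and Fbln5 the closest (0.14). Among the 9455 genes that averaged 10 CPM or more, those nearest to Mfap5 were Klf4 (0.19), Cntn2 (0.20) and Scel (0.23). Klf4 is a transcription factor of the Krüppel-like family. Nearest to Eln were Vgll3 (0.10), Ctgf (0.11) and Eif4ebp2 (0.11), where Ctgf is a matricellular protein made by fibroblasts. Nearest to Mfap4 were Hmgcs1 (0.11), an enzyme of sterol synthesis, Ndrg2 (0.11) and Col18a1 (0.11), a basement membrane collagen. Nearest to Fbln1 were Lama4, Fst and Myh10 (0.092 to 0.105). Dchs1 came first for both Mfap2 (0.21) and Fbn2 (0.10), followed by Gxylt2 and Rnf144a for Mfap2 and by Lamc1 and Slc8a1 for Fbn2. Nearest to Emilin1 were Adamtsl2, Neo1 and Sel1l (0.042 to 0.051), and nearest to Fbn1 were Pear1, Gnas and Sipa1l2 (0.040 to 0.043). The distance is small for genes that vary little, as Fbn1 does, and says nothing of shared function.

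Genes that act on these fibres were read from the same fit in 5 lists. Against shNT, 23.1% of all genes were called in the double knockdown, 10.8% in shMtfr1l and 29.4% in shOpa1. Whether the lists differ from those shares was not tested. Of 10 genes for elastin crosslinking and secretion, 2 rose and 6 fell in the double knockdown, none rose and 6 fell in shMtfr1l, and 3 rose and 5 fell in shOpa1, all against shNT (median log2 fold changes of -0.22, -0.19 and -0.12). Lox, the lysyl oxidase that crosslinks elastin and collagen, averaged 910.5 ± 20.2 CPM in the double knockdown, 1073 ± 25 in shMtfr1l, 940.7 ± 17.1 in shOpa1 and 1782 ± 59 in shNT (SD, n = 3 each). Lox fell 1.96-fold (adjusted p = 1.47e-19), 1.66-fold (6.27e-16) and 1.90-fold (1.39e-19) in the knockdown groups in that order. In shOpa1 Lox fell and Eln rose, with Eln at 5430 ± 403 CPM in shOpa1, against 3085 ± 81 in shNT. Atp7a, the copper transporter that supplies lysyl oxidases, rose 1.45-fold in shOpa1 (96.6 ± 5.5 CPM, against 66.4 ± 4.6 in shNT; adjusted p = 2.28e-07).

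Of 20 genes for fibrillin binding and microfibril assembly, 3 rose and 6 fell in the double knockdown, 4 rose and 3 fell in shMtfr1l, and 3 rose and 7 fell in shOpa1 against shNT (medians of -0.10, 0.018 and -0.047). Ltbp2, a latent TGF-beta binding protein that sits on microfibrils, averaged 83.9 ± 4.1 CPM in the double knockdown and 84.4 ± 3.6 in shOpa1, against 148 ± 5 in shNT (adjusted p = 4.54e-12 and 2.71e-12). Furin, the convertase that trims profibrillin, rose against shNT in the double knockdown (1.37-fold; adjusted p = 2.77e-08), in shMtfr1l (1.47-fold; 8.2e-10) and in shOpa1 (1.38-fold; 6.52e-09). Of 7 tested among 9 other fibulins and emilins, 1 rose and 2 fell in the double knockdown, none rose and 1 fell in shMtfr1l, and 1 rose and 2 fell in shOpa1 (medians of 0.15, 0.049 and 0.073). Hmcn1, the fibulin-related hemicentin, averaged 27.8 ± 4.8 CPM in shOpa1, against 13.9 ± 2.3 in shNT (adjusted p = 1.13e-06). Efemp2, the fibulin-4 gene needed for elastic fibre assembly, was 1.16-fold lower in the double knockdown (adjusted p = 0.00469) and 1.16-fold lower in shOpa1 (adjusted p = 0.00276).

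Of 12 tested among 13 proteases and inhibitors that act on elastin or microfibrils, none rose and 4 fell in the double knockdown, 1 rose and 2 fell in shMtfr1l, and 1 rose and 4 fell in shOpa1 (medians of -0.11, -0.13 and -0.096). The inhibitor Timp1 averaged 90.4 ± 3.5 CPM in the double knockdown, 79.3 ± 5.5 in shMtfr1l and 79.6 ± 4.3 in shOpa1, against 112 ± 6 in shNT. Timp2 went the other way in shOpa1, at 3201 ± 136 CPM against 2570 ± 146.5 in shNT (adjusted p = 1.26e-07). Timp3 averaged 1332 ± 21 CPM in the double knockdown and 1217 ± 3.7 in shMtfr1l, against 1539 ± 60 in shNT. Of 9 integrin subunits that bind these fibres, 1 rose and 4 fell in the double knockdown, 2 rose and 1 fell in shMtfr1l, and 2 rose and 4 fell in shOpa1 (medians of -0.25, 0.081 and -0.19). Itgb5, a partner of the alpha-v subunit, averaged 1277 ± 19 CPM in the double knockdown and 1146 ± 30 in shOpa1, against 1946 ± 30 in shNT (adjusted p = 1.57e-14 and 5.2e-18). Itga5, of the fibronectin receptor, averaged 329 ± 12 and 412 ± 24 CPM in the double knockdown and shOpa1, against 219.6 ± 2.7 in shNT (adjusted p = 3.91e-11 and 8.75e-17).

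The first set gave a second look at Mtfr1l knockdown without a test, since it has 1 labelled sample per group. There, 4 members differed by more than 1.5-fold between shMtfr1l and shNT, against 16.8% of 15198 genes in these samples. Fbn2 was 3.59-fold higher in shMtfr1l (59.8 CPM, against 16.6 in shNT; 6.17% of genes were higher past that fold). Eln was 2.38-fold lower (1329 CPM in shMtfr1l, against 3161 in shNT), Mfap4 1.62-fold lower (115 CPM in shMtfr1l, against 187 in shNT) and Fbln5 1.60-fold lower (177 CPM in shMtfr1l, against 284 in shNT), where 10.6% of genes were lower past that fold. The 3 count columns of each sample did not overlap between the samples for these 4 genes, or for Mfap5, Fbln1, Fbln2 and Emilin1. They did overlap for Mfap2 and Fbn1. Fbn2 lay between 50.8 and 65.0 CPM in shMtfr1l and between 14.3 and 18.1 CPM in shNT. The columns belong to 1 labelled sample per group, so their separation is not replication, and its share over all genes was not computed. The other 6 members stood within 1.5-fold, among them Mfap5 (10.00 CPM in shMtfr1l, against 12.8 in shNT) and Fbln2 (1056 CPM in shMtfr1l, against 1169 in shNT). The log2 differences of the others were -0.30 for Mfap2, 0.056 for Fbn1, -0.27 for Emilin1 and -0.35 for Fbln1.

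Set beside the second set, where Eln in shMtfr1l differed from shNT by 0.031 on the log2 scale, its difference in the first set was -1.25. For Fbn2 the difference was 1.84 in the first set, with 0.24 in the second. For Mfap5 the first set gave -0.35 and the second -1.03, for Mfap4 -0.70 and -0.41, and for Fbln1 -0.35 and -0.41. The ratio of Eln to Fbn1 per kilobase was 2.05 in shMtfr1l and 5.06 in shNT of the first set. The first set is of day 7 only, while the second-set differences pool libraries titled days 7, 8 and 9. In the day 7 libraries of the second set, Fbn2 stood at 61.7 CPM in shMtfr1l and 42.8 in shNT. Eln stood there at 3442 CPM in shMtfr1l and 3026 in shNT. The sets were scaled separately and the differences between them were not tested. Mtfr1l stood at 8.73 CPM in shMtfr1l and 79.2 in shNT of the first set, a deeper knockdown than the 16.4 and 71.9 CPM of the second.

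**Figure D5:**
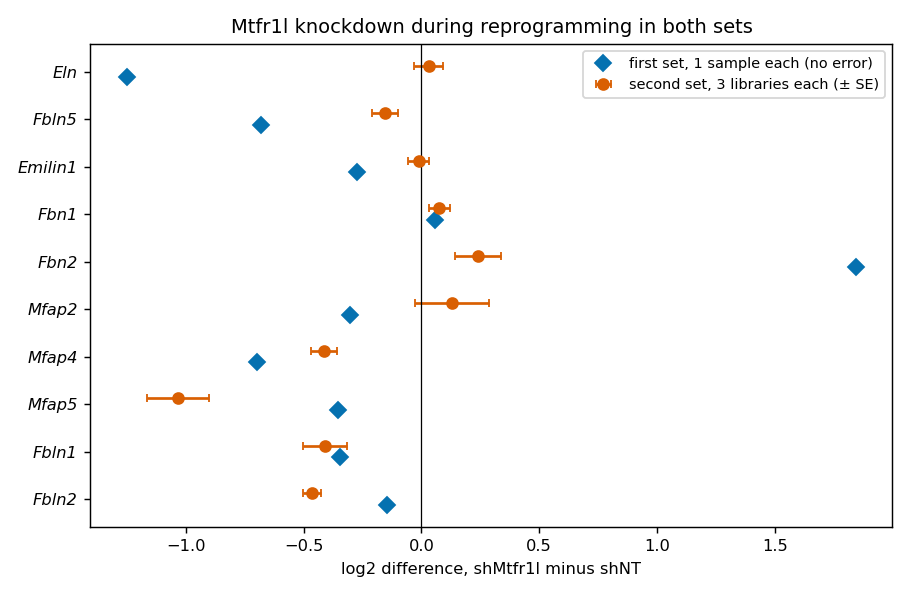
Log2 difference of each gene between shMtfr1l and shNT in the first set (diamonds, 1 sample per group, no error) and in the second set (circles, 3 libraries per group, ± 1 SE). Fbn2 (1.84) and Eln (-1.25) of the first set lie farthest from 0, while Mfap5 (-1.03) does so in the second.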

How the data were processed

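The authors deposited raw counts per gene. Per the file headers, featureCounts 2.0.6 made them in its reverse-stranded mode from the UCSC annotation of mm10. Pairs were not counted as units, so each mate counted by itself, and reads with several alignments or in several genes were not counted. Counts and library totals can therefore exceed the number of fragments. Of the counts from 1 to 20 in the second set, 65.86% were even. The submitters' processing notes name FastQC and DESeq2. The aligner was not given in the sources used here. Deposited gene lengths were used for values per kilobase. Of the first set, 12 count columns could not be tied to a label, so 4 fibroblast samples are left out as not analysed here; the 3 columns of each reprogramming sample were summed and counted as 1 replicate.

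Counts were scaled with TMM, filtered with filterByExpr and compared with edgeR 4.0.16 (quasi-likelihood test with robust spread, 1 coefficient per group, 12 libraries, 8 residual degrees of freedom) in R 4.3.3, with limma 3.58.1; promoters were searched and figures drawn with Python 3.11.15. Robust spread was chosen after seeing the data, so that counts over all genes equal those of an earlier analysis of the series. Benjamini-Hochberg adjustment ran over 14162 genes, with calls under an adjusted p of 0.05; log2 values of single samples used a prior count of 2. No library was a copy of another of its own group, with a chi-square per gene of 5.37 to 10.29 between libraries of 1 group. Pairs from different groups were not compared in this way. Depth ran from 16205862 to 25317069 counts, and each member had at least 153 counts in every library. Alternatives were DESeq2 1.42.0 (test or size factors), no low-count filter, a replicate block, fits of the compared groups alone and fits leaving out libraries.

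The pairing by replicate number rests on the titles alone, which tie the numbers to days 7, 8 and 9. The data show little sign of it: deviations of same-numbered samples from their group means correlated between -0.411 and 0.17, with 2 of 18 pairs over 0.1. The members and lists were chosen with earlier results of these data known. All 10 members were named in every comparison. From the related lists the text draws on the genes with the smallest adjusted p, up to 3 per list and comparison, and for each member that was called it gives the 3 genes of nearest pattern, except for Fbln2, whose nearest genes are not reported here.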

Additional observations from a re-analysis of the deposited data

Results flagged for a closer look

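For 3 of the 10 members, Mtfr1l knockdown differed between the background with Opa1 knockdown and that without it, by an edgeR interaction term with an adjusted p under 0.05 (3.56% of all genes passed). The interaction was 0.489 on the log2 scale for Mfap4, whose mean was 189.8 CPM in the double knockdown, 305 in shMtfr1l, 180.2 in shOpa1 and 406.5 in shNT (adjusted p = 0.000101). For Eln the interaction was -0.591, with means of 3684, 3153, 5430 and 3085 CPM in the same groups (adjusted p = 0.0012). For Fbln2 it was 0.375, with means of 2754, 2081, 2932 and 2874 CPM (adjusted p = 2.83e-05). All 3 passed in every alternative fit run, leaving out libraries included. None of these fits takes the depth of knockdown into account. Mtfr1l averaged 27.2 CPM in the double knockdown, against 16.4 in shMtfr1l. Opa1 averaged 18.3 CPM in the double knockdown, against 8.96 in shOpa1. The part of this weaker depletion in the interactions was not tested.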

How the results depend on the processing

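No called member changed direction in any alternative fit, and the count of members called stayed within 1.5 times its value in each comparison. Leaving out libraries gave 3 to 5 members in shMtfr1l against shNT, 7 in every fit of shOpa1 against shNT, 6 to 8 in the double knockdown against shNT, 7 to 9 against shMtfr1l, 2 to 3 against shOpa1 and 3 to 4 in the interaction. With the replicate block as pairing term, the counts were 4, 7, 7, 9, 2 and 3 members in the same order; Fbn1 in the double knockdown was the call lost (adjusted p = 0.0645), and the block changed no other call. Without robust spread, added after seeing the data, the counts were also 4, 7, 7, 9, 2 and 3. Gained calls of Fbln5, Fbn2 and Fbln1 in fits that left out libraries stand beside those genes. DESeq2 or no low-count filter added Fbln5 in shMtfr1l (adjusted p = 0.0476 and 0.0448), and DESeq2 or the compared groups alone added Emilin1 in the double knockdown against shOpa1 (0.0103 and 0.034). Over all genes, 675 were called in the double knockdown against shOpa1, with 449, 409 and 423 without double knockdown replicate 1, 2 or 3, 416 without shOpa1 replicate 2, and 370 and 199 without replicate 1 or 2 of every group. Those last 2 fits, which have fewer libraries, called 222 and 161 genes in the interaction (504 with all libraries) and 790 and 878 in shMtfr1l against shNT (1523 with all); that without replicate 1 called 1964 in the double knockdown against shMtfr1l (3041 with all). In the first set, 4 members passed 1.5-fold under every setting, while 4620 of all genes did with no low-count filter and 2553 with it. Mfap2, Mfap5 and Fbn2 had the fewest counts, and their standard errors were wide; Fbln1, with more counts, had standard errors close to those of Fbn2.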
